A study of Homo sapiens with 8 samples.

Results

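Skeletal muscle-like cells made up 148 of the 43693 cells (0.339%, 95% exact binomial interval 0.286 to 0.398, which covers counting error only) sequenced from neural cultures of the established human embryonic stem cell line H1. The cells were chosen by their own counts: a cell belonged to them if at least 4 of 8 muscle genes (MYOG, MYOD1, DES, ACTC1, TNNT1, MYL1, MYH3 and TTN) had an entry of 1 or more in the deposited matrix of estimated counts, with MYOG, MYOD1, MYL1 or MYH3 among the 4. These cells are called muscle-rule cells below. Since the rule was applied to measured values, the levels of the 8 genes describe the choice, and the comparisons of muscle-rule cells with other cells are given as descriptions with no test.

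The study profiled flat (2-D) and organoid (3-D) neural cultures to learn which cells they hold and how their RNA responds to dopamine, cocaine and morphine. Fixed cells were mixed and split several times and barcoded at each round, so that a cell is known by its series of barcodes, and the pool was sequenced as 8 sublibraries. The labels of a sublibrary list all cultures and treatments together, and the culture of a cell is given by a tag in its name. All 46 tags share the H1 genotype. The treatment parts of the tags read AcCoc, AcMor, AcDop and Vehic, which the labels do not define, and the labels name untreated cultures, not vehicle-treated ones. Arrangements 2DCocu (12 tags) and 3DFusi (10 tags) carried AcCoc, AcMor and Vehic, and arrangements 2DMono and 3DMono (6 tags each) carried AcDop, AcMor and Vehic. No treatment was named in 2DProto2Fjo, 2DProto3Wu and 2DProto4Nic (2 tags each) or in 3DProto1For and 3DProto2Xia (3 tags each). No source used here gives doses, times or culture ages. Nothing says that numbered tags came from separate cultures, so n is a number of tags, and p-values measure the spread between tags, which may be technical.

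The 8 sublibraries held 13 to 21 muscle-rule cells each (0.246% to 0.380% of their cells, SD 0.0463 points). The summed depth of a sublibrary was 83960490 to 116835921 counts. Muscle-rule cells were deeper than the rest, with a median of 29003 counts (4796 to 325957) and 5904 detected genes, against 12743 counts and 4565 genes in the other 43545 cells. Their median mitochondrial share of counts was 4.58%, against 2.62% in the other cells. By tag it was 3.74% against 1.04% in 3DProto2Xia2, 6.82% against 3.76% in 3DProto1For2, 1.23% against 1.27% in 3DProto1For1, 4.90% against 1.90% in 3DMonoVehic2 and 6.10% against 3.23% in 3DFusiVehic1, and its part in the differences between cells below was not tested. Of 41192 distinct barcodes, 2393 occurred in more than 1 sublibrary, and 17 muscle-rule cells had such a barcode. None of these barcodes belonged to 2 muscle-rule cells.

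Skeletal muscle arises in the embryo from paraxial mesoderm, where PAX3 and PAX7 mark progenitors and the myogenic regulatory factors MYF5, MYOD1, MYOG and MYF6 switch cells to the muscle programme. Committed myoblasts leave the cell cycle, fuse into multinucleated fibres and build sarcomeres, the repeated units in which myosin thick filaments pull on actin thin filaments. Developing fibres use embryonic and perinatal myosin heavy chains and a fetal acetylcholine receptor, which are replaced by adult forms as the fibre matures and receives its nerve.

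Muscle-rule cells were unevenly spread over the cultures. The 3-D cultures held 143 of them (0.659% of 21699 cells) and the 2-D cultures 5 (0.0227% of 21994). Of the 22 tags from 3-D cultures 9 had at least 1 such cell, as had 2 of the 24 tags from 2-D cultures. The 5 tags with 10 or more held 132 cells, or 89.2% of all. These were 3DProto2Xia2 with 54 of 729 cells (7.41%), 3DProto1For2 with 38 of 1094 (3.47%), 3DProto1For1 with 17 of 580 (2.93%), 3DMonoVehic2 with 13 of 689 (1.89%) and 3DFusiVehic1 with 10 of 1634 (0.612%).

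Tags of the same arrangement differed widely. In 3DProto2Xia the other two tags held 0 of 938 and 0 of 1298 cells, which allows shares of up to 0.320% and 0.231% (3 counts of the total). In 3DProto1For the remaining tag held 0 of 331, which allows up to 0.906%. The remaining members came from 3DFusiAcCoc2 (5 of 410 cells), 3DMonoAcMor1 (4 of 1839), 3DMonoAcMor2 (1 of 1135), 3DMonoVehic1 (1 of 1539), 2DMonoAcMor2 (4 of 642) and 2DCocuAcCoc2 (1 of 1263). The 2-D protocol cultures held 0 of 2447, 0 of 2272 and 0 of 2019 cells, which allows up to 0.123%, 0.132% and 0.149%.

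**Figure D1:**
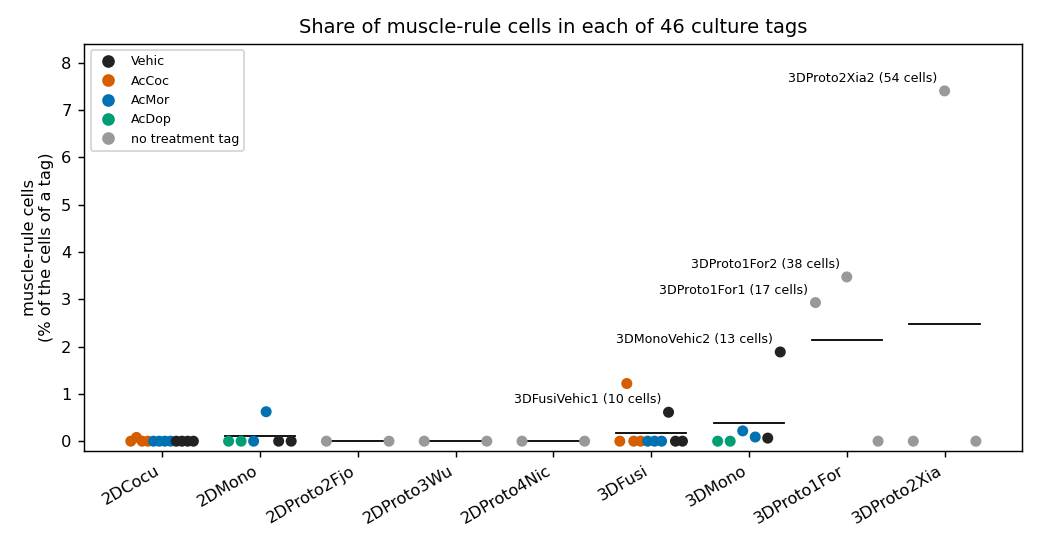
Each point is 1 of 46 culture tags, the vertical axis gives the muscle-rule cells as a percentage of the cells of the tag, colours give the treatment part of the tag, and lines are the means of an arrangement. The 5 tags with 10 or more muscle-rule cells are named, from 0.612% in 3DFusiVehic1 to 7.41% in 3DProto2Xia2, and all 5 are 3-D.

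No comparison of these shares passed its test. Tags of 3-D cultures had a mean share of 0.814% ± 1.78 (SD, n = 22) and tags of 2-D cultures 0.0293% ± 0.128 (SD, n = 24). Within pairs of arrangements and treatments the 3-D tags were higher by 0.515 points on average (two-sided permutation p = 0.0175, Benjamini-Hochberg adjusted p = 0.245 over the 14 share comparisons made). The protocol tags gave 2.30% ± 2.96 in 3-D (SD, n = 6) and 0% in 2-D (n = 6; two-sided exact permutation p = 0.182, adjusted 0.750). The share was 0.183% ± 0.412 (SD, n = 10) in 3DFusi and 0.00660% ± 0.0229 (SD, n = 12) in 2DCocu (exact permutation p = 0.214, adjusted 0.750). Arrangement 3DMono had 0.376% ± 0.744 and 2DMono 0.104% ± 0.254 (SD, n = 6 each; exact permutation p = 0.556, adjusted 1.0). Among tags with AcMor or Vehic, 3DFusi had 0.102% ± 0.25 (SD, n = 6) and 3DMono 0.564% ± 0.884 (SD, n = 4; exact permutation p = 0.14, adjusted 0.750). Between 3DProto2Xia (2.47% ± 4.28) and 3DProto1For (2.13% ± 1.87; SD, n = 3 each) the exact permutation p was 1.0, and 3 tags against 3 cannot give a p below 0.1.

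The treatments could hardly be compared, because most tags held no muscle-rule cell. In 3DMono the share was 0.976% ± 1.29 with Vehic, 0% with AcDop and 0.153% ± 0.0915 with AcMor (SD, n = 2 tags each). The two-sided exact permutation p was 0.333 for AcDop (adjusted 0.933), the smallest that 2 tags against 2 can give, and 1.0 for AcMor. The other 6 treatment comparisons, in 2DCocu, 3DFusi and 2DMono, each gave an exact permutation p of 1.0. In 2 of them both groups had no muscle-rule cell, and in 3 (AcCoc in 2DCocu, AcMor in 3DFusi and AcMor in 2DMono) 1 tag of the 2 groups together held any, which fixes p at 1.0. The numbers of tags alone would allow a p of 0.0286 to 0.333 at the smallest over the 8 treatment comparisons, but not where so few tags held a cell.

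All levels below are in CPM, the summed counts of a gene over a set of cells scaled to the summed counts of all genes in those cells. Deeper cells thus weigh more in the level of a set. A gene is compared with itself between sets of cells, since a level also grows with the length of a transcript. A fold is the ratio of CPM + 1, and 2-fold is the size past which a gene is called higher or lower. Of the 32246 genes seen in at least 20 cells, 3.5% were 2-fold or more higher in muscle-rule cells than in all other cells and 9.85% lower, and the median log2 fold of all genes was -0.23. Within each of the 5 tags with 10 or more muscle-rule cells, 0.831% of genes were 2-fold or more higher than in the other cells of the same tag in all 5, and 0.968% lower in all 5.

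The 8 genes of the rule took 2.72% of all counts of muscle-rule cells, and 24 cells had all 8, 57 had 7, 29 had 6, 19 had 5 and 19 had 4. TTN, the giant spring of the sarcomere, alone took 2.33% (23290 CPM against 41.7 in other cells). By tag its level in muscle-rule cells was 32098 CPM in 3DProto2Xia2, 21993 in 3DProto1For2, 26296 in 3DProto1For1, 34840 in 3DMonoVehic2 and 9290 in 3DFusiVehic1, against 36.6 to 202 in the other cells of these tags. DES, the muscle intermediate filament, stood at 189 CPM against 0.297, ACTC1, the actin of heart and embryonic skeletal muscle, at 573 against 0.178, and TNNT1, slow troponin T, at 132 against 1.18. MYH3, the embryonic myosin heavy chain, was seen in 143 of 148 cells, and MYL1, a fast alkali light chain, in 125. With each cell thinned to 5000 counts, 112 of the 148 still met the rule, and MYH3 was seen in 91.1% of the 146 muscle-rule cells deep enough, against 2.43% of the 41599 other cells. The other cells of the 5 tags had a summed level of 5.86 to 16.9 CPM of the 5 skeletal markers MYOG, MYOD1, DES, MYL1 and MYH3, against 6.08 in all other cells and 2285 to 4469 in the muscle-rule cells of these tags. The 19 cells just inside the rule, with 4 genes, had a median of 20881 counts, and 18 were from 3-D cultures. The 103 cells just outside it, with 3 genes, had a median of 30282 counts, and 68 were from 3-D cultures. Of the latter 67 carried 4 or more of 8 neuron markers, against 5 of the 19 just inside.

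Outside the rule, the 9 lists of muscle genes held 133 genes, of which 129 were seen in at least 20 cells. In muscle-rule cells 92 of them were 2-fold or more higher than in all other cells, where the share over all genes was 3.5%, 1 was lower (CDH2) and 36 were neither. Their median log2 fold was 2.84. Of the 129, 70 were 2-fold or more higher than in the other cells of the same tag in all 5 tags, where 0.831% of all genes were. The shares of 3.5% and 0.831% over all genes also stand beside the counts of each list below. MYF6 and MYH2 reached 20 cells only through the muscle-rule cells, where they are high, so they had to differ. Among the 127 genes seen in at least 20 other cells 90 were higher and 1 lower, where 3.47% and 9.87% of all such genes were. As these are the cells the rule chose, the counts are a description and support nothing on their own.

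**Figure D2:**
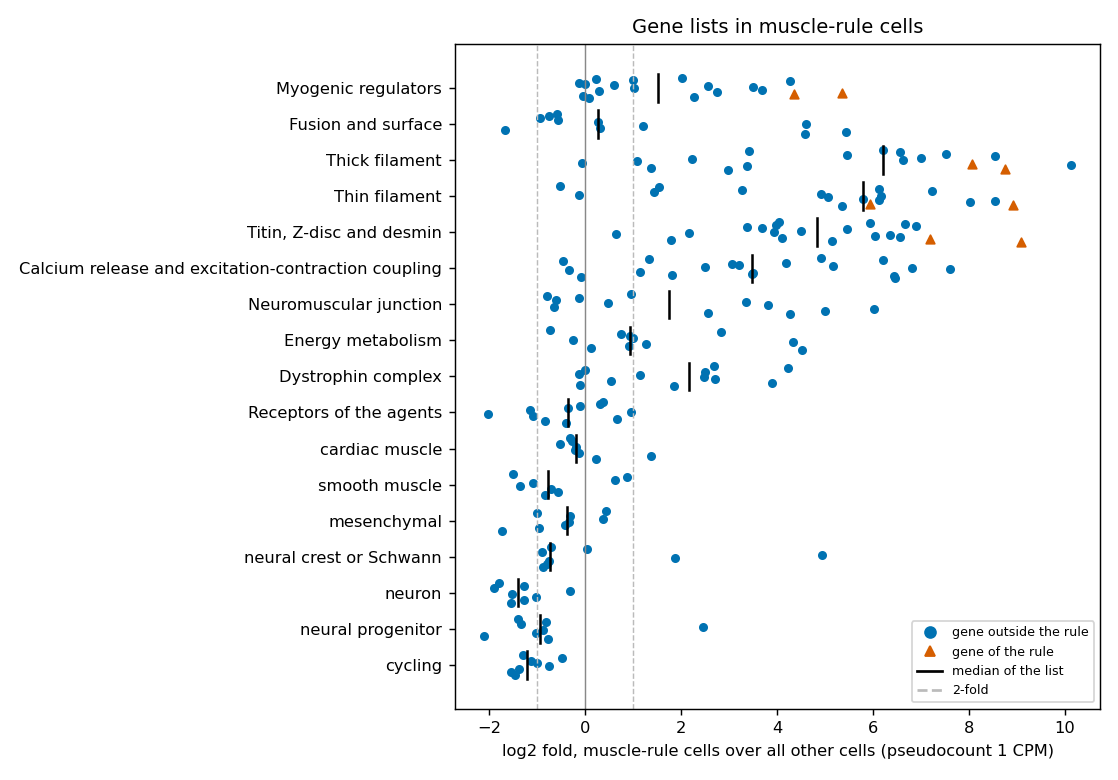
Each point is 1 gene, the horizontal axis is the log2 fold of summed CPM + 1 in the 148 muscle-rule cells over the 43545 other cells, rows are gene lists, triangles mark genes of the rule and short lines the median of a list. Most genes of the sarcomere and calcium lists lie to the right of the dashed 2-fold line, while 7 of the 8 neuron markers lie to the left of the other one.

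Among the regulators, MYOG, the factor that drives terminal differentiation, and MYOD1, the factor that commits cells to muscle, belong to the rule. MYOG stood at 75.9 CPM in 3DProto2Xia2, 52.1 in 3DProto1For2, 78.2 in 3DProto1For1, 41.3 in 3DMonoVehic2 and 35.7 in 3DFusiVehic1, and other cells of these tags had 0.0807 to 2.03. MYOG was seen in 113 cells and MYOD1 in 58, with 51 cells holding both. MYF6 (5.95 CPM against 0.0254 in all other cells) was seen in 18 cells. MYF5, the earliest of the 4 factors, was listed at 0 in all 148 cells, which allows up to 0.470 CPM (3 counts).

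Of the 16 regulators outside the rule, 9 were 2-fold or more higher, 4 of them in each of the 5 tags, and 7 neither. The 9 include MYF6, which reached 20 cells only through the muscle-rule cells and so had to differ. MEF2C, which partners the myogenic factors, had 1297 CPM in muscle-rule cells and 99.2 in other cells. Its level by tag was 1995 CPM in 3DProto2Xia2, 1300 in 3DProto1For2, 950 in 3DProto1For1, 1540 in 3DMonoVehic2 and 511 in 3DFusiVehic1, each above the 38.5 to 108 of the other cells there. The homeodomain factor SIX4 (30.8 CPM against 4.42) was also higher in each of the 5 tags. MEF2A, the most abundant regulator that was neither, had 278 CPM against 226.

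PAX7 depended on the cells it was compared with. Over all cells it was 4.86-fold higher in muscle-rule cells (39.9 CPM against 7.41). Within tags it was 37.3 CPM in muscle-rule cells and 76.8 in other cells of 3DProto2Xia2, 36.1 and 51.8 in 3DProto1For2, 31.6 and 38.6 in 3DProto1For1, 9.53 and 12.7 in 3DMonoVehic2, and 85.2 and 16.7 in 3DFusiVehic1. In 4 of the 5 tags the muscle-rule cells were thus the lower ones, but only in 3DProto2Xia2 by 2-fold or more. PAX3 had 22.2 CPM against 20.9 over all cells. It was 2-fold or more lower in 4 of the 5 tags and 2-fold or more higher in 3DFusiVehic1 (33.1 against 10.3).

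MYOG lies at chr1:203083132-203086036 on the minus strand (GRCh38, GENCODE 29), MYL1 at chr2:210290150-210315190 and MYH8 at chr17:10390322-10421950, both also on the minus strand. The 250 bases before the RefSeq start of each (GRCh38.p14) are printed because MyoD-family factors bind the E-box, CANNTG, and MEF2 factors a site searched here as CTA and TAG with any 4 bases between them. Both motifs read the same on both strands, so 1 search covers them, and matches are in capitals. MYL1 has 2 RefSeq starts in the table, which yield its long and short light chain.
MYOG: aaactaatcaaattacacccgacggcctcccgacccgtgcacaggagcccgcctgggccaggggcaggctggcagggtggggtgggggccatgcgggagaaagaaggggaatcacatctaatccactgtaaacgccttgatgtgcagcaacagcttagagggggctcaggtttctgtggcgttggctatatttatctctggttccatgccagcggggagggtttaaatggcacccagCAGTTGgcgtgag
MYL1, upstream start: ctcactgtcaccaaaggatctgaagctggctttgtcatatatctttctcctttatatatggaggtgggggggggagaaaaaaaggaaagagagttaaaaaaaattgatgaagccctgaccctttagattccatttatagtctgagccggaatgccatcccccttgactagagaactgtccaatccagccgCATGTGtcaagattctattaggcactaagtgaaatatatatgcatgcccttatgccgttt
MYL1, downstream start: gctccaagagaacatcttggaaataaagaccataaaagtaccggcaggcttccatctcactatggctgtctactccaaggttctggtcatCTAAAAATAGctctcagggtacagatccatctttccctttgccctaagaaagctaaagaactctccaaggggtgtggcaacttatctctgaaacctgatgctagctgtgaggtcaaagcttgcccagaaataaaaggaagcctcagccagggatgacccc
MYH8: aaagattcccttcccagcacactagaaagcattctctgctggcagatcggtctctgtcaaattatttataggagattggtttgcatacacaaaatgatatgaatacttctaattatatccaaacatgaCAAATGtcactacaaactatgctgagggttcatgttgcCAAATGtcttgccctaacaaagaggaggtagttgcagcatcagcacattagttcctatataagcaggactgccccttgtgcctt

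In these windows, chr1:203086013-203086262, chr2:210315175-210315424, chr2:210303616-210303865 and chr17:10421951-10422200, the MYOG window had 1 E-box, whose first base lies 13 bases before the RefSeq start. GENCODE 29 starts MYOG further upstream, inside this window, so the E-box lies within the gene as placed above. The upstream MYL1 window had 1 at 60 bases, and the MYH8 window had 2, at 122 and 84 bases. The MEF2 motif in the form searched occurred once, 160 bases before the downstream MYL1 start. Other forms of the site were not searched, so the windows without a match may still hold one. Of 35116 RefSeq promoters of the same length 61.8% held an E-box and 2.36% the MEF2 motif. The promoters of MYOD1, MYH3 and CHRNG are not used here.

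Fusion and surface genes were mixed, with 4 of 11 measured genes 2-fold or more higher and 1 lower. CDH15, the muscle cadherin, had 111 CPM in muscle-rule cells against 1.60, and was seen in 133 of them. CAV3, the caveolin of the muscle membrane, had 200.2 CPM against 7.22, and ITGA7, a laminin receptor, 44.5 against 18.7. MYMK, the membrane protein that fuses myoblasts, had 24.6 CPM against 0.0661. It was seen in 72 cells, of which 64 also had MYOG, a gene of the rule seen in 113 of the 148 cells. Its partner MYMX was seen in 3 cells (0.626 CPM). All 4 higher genes were 2-fold or more higher in each of the 5 tags. CDH2, the neural cadherin, had 214 CPM against 679, and NCAM1, an adhesion molecule of nerve and muscle, 1058 against 855.

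Of the thick filament genes outside the rule, 14 of 15 were 2-fold or more higher, 10 of them in each of the 5 tags, with a median log2 fold of 5.46. Both counts include MYH2, which reached 20 cells only through the muscle-rule cells and so had to differ. MYH8, the perinatal myosin heavy chain, had 1481 CPM in muscle-rule cells and 0.323 in all other cells. By tag it stood at 2074 CPM in 3DProto2Xia2, 1826 in 3DProto1For2, 965 in 3DProto1For1, 1536 in 3DMonoVehic2 and 817 in 3DFusiVehic1, and the other cells of these tags had 0.367 to 2.79, so the groups did not overlap. MYH3 averaged 2764 ± 742 CPM (SD, n = 5 tags) in muscle-rule cells, between 1892 and 3930. The regulatory and alkali light chains MYLPF (193 CPM against 0.525) and MYL4 (122 against 0.25) and the myosin-binding proteins MYBPC1 (690 against 0.863) and MYBPH (333 against 0.808) followed the same order. MYOM1, which ties thick filaments together at the M-line, had 474 CPM against 4.05. The exception was MYL2, the regulatory light chain of slow fibres and ventricle, which was listed at 0 in muscle-rule cells.

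The heavy chains of adult fibres each appeared in few cells. On chromosome 17 the heavy chain genes MYH8, MYH4, MYH1, MYH2 and MYH3 lie on the minus strand in this order, from 10390322 to 10657309, with MYH13 before MYH8 at 10300865 to 10373130. MYH4, the fast IIb form, was listed at 0 in all 148 cells, and MYH1, the IIx form, was seen in 1 cell (0.157 CPM). MYH2, the IIa form, was seen in 14 cells (7.25 CPM against 0.0402 in all other cells). MYH7, the slow and cardiac form outside this cluster, was seen in 23 cells, 20 of which also had MYH8. It had 27.6 CPM against 1.76 in all other cells (10.4-fold), and MYH2, which had to differ, was 7.93-fold higher. The level of MYH7 ran from 2.25 CPM in 3DProto2Xia2 over 15.5 in 3DProto1For2, 33.3 in 3DMonoVehic2 and 44.6 in 3DProto1For1 to 93.5 in 3DFusiVehic1. MYH7 was thus lowest in the tag with the most muscle-rule cells, where it did not reach 2-fold over the other cells (1.62 CPM). These genes have near-identical stretches, and how reads shared between them were divided is not stated, so low values of one form are uncertain.

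**Figure D3:**
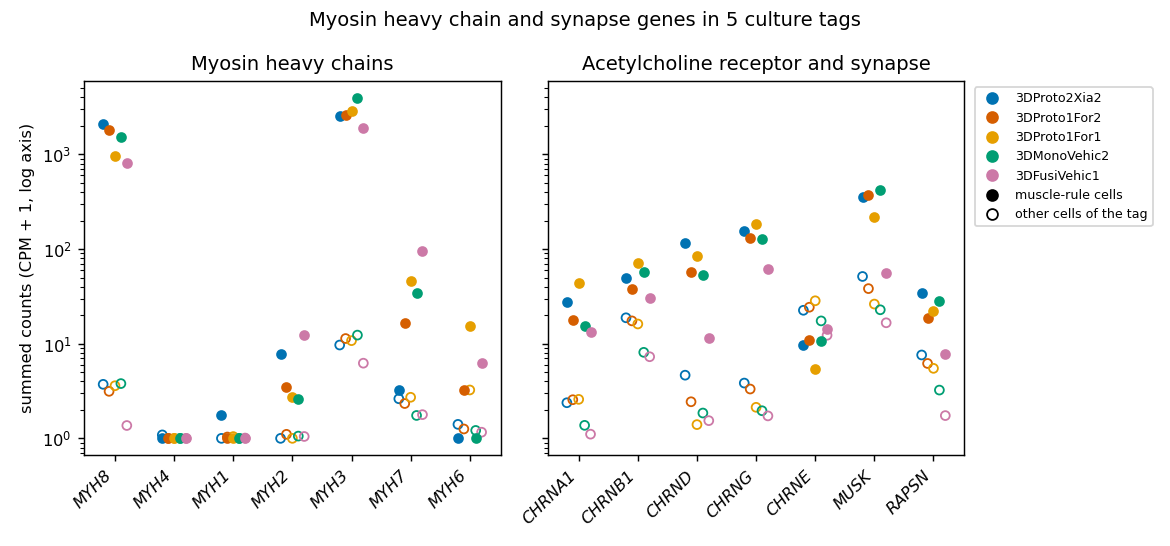
The vertical axis (log scale) gives summed CPM + 1 for myosin heavy chains and acetylcholine receptor or synapse genes, filled points are muscle-rule cells and open points other cells of the same tag, in 5 tags. MYH8 and MYH3 are high in the muscle-rule cells of all 5 tags while MYH4 is listed at 0 in them, and CHRNG stands 60.2 to 185 CPM there while CHRNE is at 4.41 to 13.2.

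Thin filament genes were higher for 13 of the 15 outside the rule (median log2 fold 5.36), and 11 of them in each of the 5 tags. NEB, the ruler of the thin filament, had 4386 CPM against 28.3 and was 1756 to 6107 CPM by tag. TNNT3, fast troponin T, had 469 CPM against 0.25, TNNT2, the heart and embryonic form, 449 against 0.718, and the tropomyosin TPM2 421 against 13.1. ACTA1, the adult skeletal actin, had 55.3 CPM and was seen in 64 cells. It stood at 129 CPM in 3DProto2Xia2, 65.9 in 3DProto1For2, 26.3 in 3DProto1For1 and 18.5 in 3DFusiVehic1, and was listed at 0 in the 13 muscle-rule cells of 3DMonoVehic2. TPM1, which many cells use, was neither over all cells (201 CPM against 220.2), but within tags it was 2-fold or more higher in 3DProto2Xia2 (281 against 97.3), 3DMonoVehic2 (169 against 76.2) and 3DFusiVehic1 (228 against 86.8). TMOD4 was neither (0.861 against 1.68).

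Genes of the Z-disc, the border of the sarcomere, were higher for 17 of 18 (median log2 fold 4.30), and 16 of them in each of the 5 tags. ACTN2, which crosslinks actin at the Z-disc, had 481 CPM against 12.6 and was seen in 146 cells. The filamin FLNC had 343 CPM against 21.5, the sarcomere protein KLHL41 291 against 1.85, LDB3 290.5 against 2.54, and the actin-binding NEXN 274 against 25.6. TCAP, the cap that anchors titin, was neither, at 1.57 CPM against 0.642.

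Calcium release genes were higher for 16 of 19 (median log2 fold 3.48), and 12 of them in each of the 5 tags. RYR1, the release channel of skeletal muscle, had 1044 CPM against 10.9 and was seen in 147 cells. Its level by tag was 1410 CPM in 3DProto2Xia2, 937 in 3DProto1For2, 1350 in 3DProto1For1, 1327 in 3DMonoVehic2 and 290 in 3DFusiVehic1, with 8.03 to 78.0 in the other cells. CACNA1S, the voltage sensor that opens RYR1, had 127 CPM against 0.477, and TRDN, which links the channel to its calcium store, 437 against 2.90. Of the calcium-binding store proteins, CASQ2, the form of heart and slow muscle, had 309 CPM against 0.586, while CASQ1, the form of fast muscle, had 1.25 against 1.83. The calcium pump ATP2A2 had 351 CPM against 157 over all cells, but within tags it was 2-fold or more higher only in 3DMonoVehic2 (389 against 128). RYR3 (146 CPM against 154) and PLN, the pump inhibitor of heart and slow muscle (0.0783 against 0.482), were neither.

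At the neuromuscular junction, 6 of 12 genes were higher, all of them in each of the 5 tags. CHRNG, the gamma subunit of the fetal acetylcholine receptor, had 153 CPM in 3DProto2Xia2, 130 in 3DProto1For2, 185 in 3DProto1For1, 128 in 3DMonoVehic2 and 60.2 in 3DFusiVehic1. Other cells of these tags had 0.727 to 2.84, so the groups did not overlap. CHRNE, the epsilon subunit that replaces it in the adult, had 9.11 CPM against 14.9 in all other cells and was 2-fold or more lower in 3 tags. The shared subunits CHRNA1 (23.8 CPM against 0.285), CHRNB1 (43.3 against 6.50) and CHRND (63.4 against 1.02) and the receptor-clustering genes MUSK (293 against 19.98) and RAPSN (24 against 1.46) were higher. DOK7, LRP4, COLQ, AGRN and ACHE were neither.

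Energy genes were higher for 5 of 11 measured genes and in each tag for 2 of them, the muscle creatine kinase CKM (98.1 CPM against 3.32) and the muscle enolase ENO3 (74.9 against 2.77). PFKM, a glycolytic enzyme, had 46.2 CPM against 23.6, and myoglobin, MB, was seen in 9 cells (1.41 CPM). The dystrophin complex, which ties the cytoskeleton to the matrix, was higher for 8 of 12 genes, and for 5 of them in each of the 5 tags. DMD, dystrophin, was seen in all 148 cells (2328 CPM against 641), SGCD had 951 CPM against 168, LAMA2, the laminin chain of muscle, 711 against 109, and SNTB1 355 against 61.8. UTRN, the dystrophin relative, had 214 CPM against 230.2 and DTNA 301 against 301.3.

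The 25 genes outside all lists with the highest fold, among genes seen in at least 20% of muscle-rule cells, were led by ASB5 (291 CPM against 0.370), the muscle long noncoding RNA LINCMD1 (215 against 0.192), the sarcomere ubiquitin ligase TRIM55 (304 against 0.978) and TP63 (432 against 2.61), a p53 relative best known from epithelia. TP63 by tag was 999.9 CPM in 3DProto2Xia2, 374 in 3DProto1For2, 388 in 3DProto1For1, 285 in 3DMonoVehic2 and 68.7 in 3DFusiVehic1, with 1.98 to 3.41 in the other cells. SMYD1, a methyltransferase of striated muscle, had 145 CPM against 0.249, UNC45B, a myosin chaperone, 110 against 0.388, MYO18B 288 against 3.00, TRIM72, a membrane repair protein, 83.6 against 1.68, and the microRNA host MIR1-1HG 56.0 against 0.0878. PTGFR, the prostaglandin F receptor, had 458 CPM against 4.01 and was the 1 gene of the 25 not higher in all 5 tags, with 1.32 CPM in 3DFusiVehic1 against 2.87 in the other cells there. Over all genes 0.831% were higher in all 5 tags. The 25 were picked by their fold in these same cells, so their being higher by tag largely follows from the choice and is no support. The others were CCDC141, C4orf54, COL19A1, KLHL31, ITGB6, LINC02251, LINC01266, MYHAS, IFNG-AS1, FILIP1, LINC00578, PKD2L2-DT, GJD2-DT and the unnamed ENSG00000286469 and ENSG00000272736. MYHAS lies antisense to the heavy chain cluster and TTN-AS1 (1134 CPM against 139) antisense to TTN. Whether counting used strand is not stated, so reads of these antisense genes and of their partners cannot be told apart.

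IGF2, the fetal growth factor whose gene is active in embryonic muscle, had 6417 CPM in muscle-rule cells, 1420 in the mesenchymal-rule cells defined below and 276 in all other cells. By tag it was 9852 CPM against 2115 in the other cells of 3DProto2Xia2, 6081 against 3404 in 3DProto1For2, 6708 against 2048 in 3DProto1For1, 6796 against 94.97 in 3DMonoVehic2 and 2516 against 271 in 3DFusiVehic1. The other cells of the protocol tags thus had far more IGF2 than those of the remaining pair, and 3DProto1For2 did not reach 2-fold. CDKN1A, the p21 inhibitor that MYOD1 is known to induce at cell cycle exit, had 113 CPM against 17.1 and was higher in each of the 5 tags. CDKN1C, the p57 inhibitor, had 26.3 CPM against 3.02 and was higher in 3 tags. These genes were picked after their values had been seen.

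Marker lists of other cell types were checked in the same cells, where 3.5% of all genes were 2-fold or more higher and 9.85% lower. Of 8 cardiac markers 1, MYH6, was 2-fold or more higher (2.68 CPM against 0.428). It was seen in 6 cells, at 14.2 CPM in 3DProto1For1, 5.33 in 3DFusiVehic1 and 2.27 in 3DProto1For2. In 3DProto2Xia2 and 3DMonoVehic2 it was listed at 0. MYL7, NPPB and TNNI3 were listed at 0 and NKX2-5 was seen in 2 cells. No muscle-rule cell carried 4 or more cardiac markers, but only 1 of all 43545 other cells (0.0023%) did, so this count cannot set the muscle-rule cells apart. The cardiac list summed to 1.5 to 14.2 CPM in the muscle-rule cells of the 5 tags and 1.72 to 18.0 in their other cells. Smooth muscle markers were lower for 3 of 8 and higher for none. Of the muscle-rule cells, the deeper ones, 5 (3.38%) carried 4 or more of them, against 1.65% of all other cells. The skeletal markers of these cells were fixed by the rule and say nothing on the label. TNNT2, CASQ2 and ACTC1, which heart also uses, are not on the cardiac list. They were high in muscle-rule cells, as given above, and ACTC1 is a gene of the rule.

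Mesenchymal-rule cells, those outside the muscle rule with 4 or more of 8 connective tissue markers such as COL1A1 and PDGFRA, numbered 4533. Of the muscle-rule cells 43 (29.1%) carried 4 or more of these markers, against 10.4% of all other cells. The markers summed to 546 CPM in muscle-rule cells, 1027 in all other cells and 5061 in mesenchymal-rule cells. By tag the sum was 389 CPM in muscle-rule cells against 2304 in other cells of 3DProto2Xia2, 911 against 3559 in 3DProto1For2, 175 against 2298 in 3DProto1For1, 104 against 370.0 in 3DMonoVehic2 and 755 against 514 in 3DFusiVehic1. It was thus lower in muscle-rule cells of 4 tags and higher in 3DFusiVehic1, while muscle-rule cells, the deeper ones, carried 4 or more markers more often over all cells. Mesenchymal-rule cells had MYH8 at 0.619 CPM, TTN at 35.8 and MYOG at 0.343.

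Of 8 neural crest or Schwann markers, 2 were 2-fold or more higher, ERBB3 and FOXD3. ERBB3, a neuregulin receptor, had 128 CPM in 3DProto2Xia2, 74.2 in 3DProto1For2, 135 in 3DProto1For1, 104 in 3DMonoVehic2 and 10.6 in 3DFusiVehic1, against 1.31 to 9.70 in the other cells there. SOX10, a defining crest gene, was near 0 (0.393 CPM against 1.55). None of the 148 cells carried 4 or more markers of that list, but only 47 of all other cells (0.108%) did, so this count cannot set the muscle-rule cells apart. The 78 neural crest-rule cells had ERBB3 at 82.0 CPM. They were chosen by 3 or more of these markers, a lower cut than 4. ERBB3 is 1 of the markers, so its level there partly follows from the choice. NES, an intermediate filament of neural and muscle precursors, was the 1 neural progenitor marker of 8 that was higher (394 CPM against 70.6, in each of the 5 tags), and PAX6 and 3 others were lower.

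Receptors and transporters that dopamine, cocaine or morphine act on were sparse. Of 11 measured genes none was 2-fold or more higher and 3 were lower, where 3.5% and 9.85% of all genes were, so the list is too short to set it apart from all genes. All together summed to 16.5 CPM against 26.3. OPRM1, the mu opioid receptor, had 1.79 CPM against 10.4 and was seen in 6 cells. DRD1 was listed at 0, and DRD2 was seen in 5 cells (1.41 CPM). HOX genes, which mark position along the body axis, summed to 43.2 CPM against 23.3, and 2 of 30 measured genes were higher, near the 3.5% of all genes. HOXD3 was the highest of them (20.3 CPM against 4.96, 51 cells), but within tags it was 2-fold or more higher in 1 and lower in 2.

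Neuron markers were present in part of the cells. Of the 148, 47 (31.8%) carried 4 or more of 8 neuron markers, against 53.1% of all other cells, although muscle-rule cells were the deeper ones. At 5000 counts per cell STMN2, a neuron cytoskeleton gene, was seen in 12.3% of muscle-rule cells and 37.0% of other cells. Against all other cells 7 of 8 neuron markers were 2-fold or more lower in muscle-rule cells, where 9.85% of all genes were. Within tags 0 of the 8 were 2-fold or more lower in each of the 5. The list summed to 396 to 1480 CPM in the 5 tags, against 1139 to 1951 in their other cells. Cells with 4 or more neuron markers had a median of 53539 counts and the remaining 101 cells 21248. A neighbour score called 18 of the 148 cells doublets, 14 of them among the 47, where 2.99% of all cells were called. Its threshold was exceeded by 41.2% of simulated doublets, so doublets may remain uncalled. In the 47 cells NEB had 3012 CPM and CHRNG 94.4, and in the 101 cells 6071 and 188. The deepest cells weigh most in these sums, and the deepest held 325957 counts in the 47 and 84573 in the 101. Of the 47 cells 16 carried 4 or more cycling markers, against 3 of the 101. The part of depth and of cycling cells in these levels was not tested. The tags of the 2 sets differed: 3DProto2Xia2, with the highest NEB of the 5 tags, gave 11 of the 47 and 43 of the 101 cells, and 3DFusiVehic1, with the lowest, 7 and 3. Without 3DProto2Xia2 NEB was 2885 CPM in the cells with 4 or more neuron markers and 5444 in the others, and CHRNG 91.7 and 189.8. The muscle gene count was as large without the 47 cells: 94 of 129 muscle list genes were 2-fold or more higher, and without called doublets 92.

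**Figure D4:**
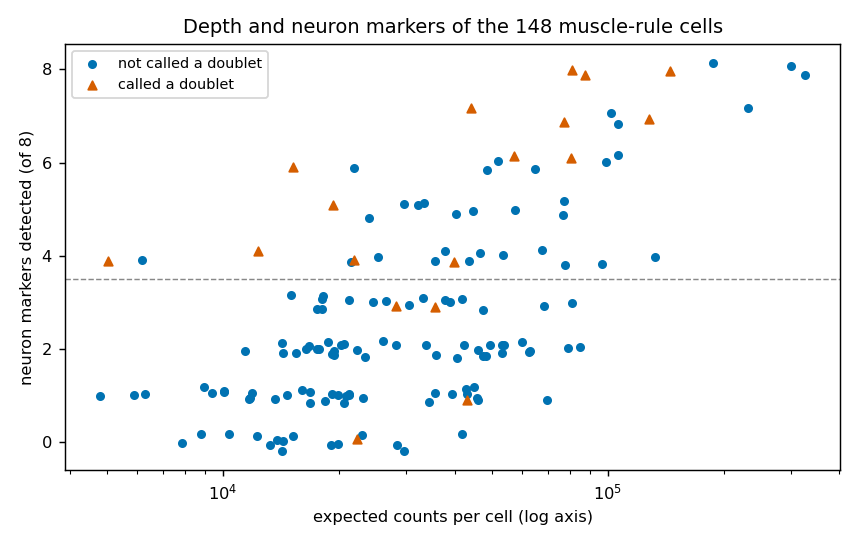
Each point is 1 of the 148 muscle-rule cells, the horizontal axis gives its counts (log scale) and the vertical axis how many of 8 neuron markers it carries, with a small vertical spread added so that points do not hide each other. The 47 cells above the dashed line are deeper than the 101 below it, and triangles mark the 18 called doublets.

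Muscle-rule cells also differed from each other in sarcomere gene levels. MYH8 was seen in 115 cells and not in 33, at median depths of 29602 and 26593 counts. The cells with MYH8 had 4799 CPM of NEB, 559 of TNNT3 and 118 of CKM, and those without it 2851, 131 and 22.9, while RYR1 stood at 1040 and 1059. The order was opposite for MKI67, a proliferation gene (17.9 CPM with MYH8 and 137 without), and for PAX7 (26.1 and 91.0). The 33 cells without MYH8 also differed in make-up: 5 came from 3DProto2Xia2, 5 from 3DFusiVehic1, 5 were called doublets, 12 carried 4 or more mesenchymal markers and 9 carried 4 or more of 8 cycling markers, with a median of 5 rule genes. Among the 115 cells with MYH8 these numbers were 49, 5, 13, 31 and 10, with a median of 7 rule genes. Without 3DFusiVehic1, whose muscle-rule cells had the highest MKI67 (122 CPM) and PAX7 of the 5 tags, MKI67 was 17.0 CPM with MYH8 and 107 without, and PAX7 22.8 and 85.7. Without 3DProto2Xia2, which had the highest NEB, the cells with MYH8 had 4257 CPM of NEB, 537 of TNNT3, 90.9 of CKM and 22.1 of MKI67, and those without it 2882, 134, 23.4 and 131, so the order was the same. The part of the other differences in make-up was not tested. PAX7 was seen in 62 cells, of which 49 also had MYOG and 32 MYOD1. Both of these are genes of the rule, and of all 148 cells 113 had MYOG and 58 MYOD1. The cells with PAX7 were also deeper (a median of 44426 counts against 20964). These splits were made on the same cells after their values had been seen and are descriptions.

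The 10 muscle-rule cells of 3DFusiVehic1 stood apart from those of the other 4 tags. They had the least TTN, NEB, RYR1 and CHRNG, a neuron marker sum of 1480 CPM against 396 to 994, a cycling marker sum of 488 CPM against 10.5 to 317, and 7 of the 10 carried 4 or more neuron markers. Their median depth was 68508 counts, against 19173 to 44035 in the other 4 tags, and 4 were called doublets. The part of these values in the lower levels of TTN, NEB, RYR1 and CHRNG was not tested. Not all muscle genes were lowest in 3DFusiVehic1. MYH7 was the highest of the 5 tags there (93.5 CPM), and ACTC1 (429 CPM) and TNNT1 (147 CPM) lay within the range of the other 4 tags. Without this tag 93 of 129 muscle list genes were 2-fold or more higher. Genes were not tested between cultures within muscle-rule cells, because a minimum of 20 such cells per tag had been set for that test and 2 tags reached it, each in another arrangement.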

How the data were processed

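RNA was measured in single cells of 2-D and 3-D neural cultures from the H1 line, in 8 sublibraries of 1 pool. The authors deposited 1 matrix of estimated counts for 60286 genes in 43693 cells, with 54.3% of its 215531617 entries whole. Per the submitters' processing notes, Salmon 1.7.0, alevin, Seurat 4.1.1 and hg38 were used, with no role or order stated. The sources used here do not give the annotation, the use of strand or the division of shared reads.

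Counts were summed over cells and scaled to CPM with a pseudocount of 1 for folds, and genes seen in at least 20 cells were counted. Cells were thinned to 5000 counts where stated. Doublets were called by the share of simulated doublets among 40 neighbours (threshold 0.799, exceeded by 41.2% of simulated doublets), which called 1305 cells (2.99%); they were kept, and leaving them out was an alternative. Two-sided permutation tests within treatments compared the shares of tags, exact or with 100000 resamples, and Benjamini-Hochberg adjustment over 14 comparisons. The scripts were tested on simulated data. Software was Python 3.11.15 with numpy 2.4.6, scipy 1.17.1, pandas 2.3.3 and scikit-learn 1.9.0. Positions are from GENCODE 29 and promoters from RefSeq (GRCh38.p14).

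The members, gene lists and marker lists were chosen with earlier results of these data known. From each list the genes named are those with the highest CPM and those not higher with the highest CPM; others, such as MYF5, MYH4, MYMX, CASQ1, PLN, CHRNE, MB and TP63 by tag, were named after their values were seen. Some genes of the lists are counted but not reported by name here.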

Additional observations from a re-analysis of the deposited data

Results flagged for a closer look

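In 2 groups of 4 tags the highest share lay far from the rest by Dixon's ratio. The tag 2DCocuAcCoc2 had 0.0792% muscle-rule cells, which is 1 cell of 1263, and the other AcCoc tags of 2DCocu had 0. The tag 3DFusiAcCoc2 had 1.22%, or 5 cells of 410, and the other AcCoc tags of 3DFusi had 0. The ratio was computed in 5 groups. Chance flags about 1 in 20 groups of measured values, but that rate does not hold here: with the other tags at 0, any tag with a single muscle-rule cell reaches the highest possible ratio.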

How the results depend on the processing

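None of the 14 share comparisons passed at an adjusted p of 0.05 under any alternative run. The share over all cells, 0.339%, was 0.574% with 3 of 8 genes, 0.268% in cells thinned to 5000 counts and 0.231% without members carrying 4 or more neuron markers. For AcCoc minus Vehic, 3 of 8 genes turned the difference to -0.0219 points in 2DCocu and -0.0489 in 3DFusi. In 2DCocu it was 0 with 5 of 8 genes, in thinned cells and without members carrying neuron markers. Leaving out each tag in turn gave 0 to 0.0264 points (AcCoc, 2DCocu), -0.204 to 0.305 (AcCoc, 3DFusi), -0.306 to 0 (AcMor, 3DFusi), 0 to 0.623 (AcMor, 2DMono), -1.89 to -0.0650 (AcDop, 3DMono), -1.73 to 0.0878 (AcMor, 3DMono) and -2.13 to 1.57 (3DProto2Xia minus 3DProto1For).

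The count of genes 2-fold or more higher, 1130, became 2208 within 3DProto2Xia. That of lower genes, 3177, became 4878 with a mean of CPM per cell, 5575 within 3DProto2Xia, 5892 within 3DProto1For and 5924 without members carrying neuron markers. The 92 muscle list genes became 84 to 94. Of 129 list and leading genes past 2-fold, 118 to 128 were kept per alternative. This set differs from the 129 measured muscle list genes, as it holds the 8 rule genes and the 25 leading genes. The rule genes chose the cells and the leading genes were picked by their fold, so their being kept is no support. The log2 fold reversed within 3DProto2Xia for TBX1 (-0.23) and MYH6 (-0.49), within 3DProto1For for PAX7 (-0.26), MYL3 (-0.37), JSRP1 (-0.15) and PYGM (-0.19), within 3DMono for MYH6 (-0.10) and ACTA1 (-0.49), and within 3DFusi for MEF2D (-0.20). The cause was not tested. Leaving out called doublets, per-tag comparisons, the protocol pairs, all 3-D against all 2-D tags, leaving out 3DFusiVehic1 or 3DProto2Xia2, and counting the cells of a gene outside the muscle rule alone were added after seeing the data. So was a replicate block, in which tags of the same number were paired (the labels do not say that a number marks a shared batch): its 12 comparisons gave two-sided exact permutation p of 0.5 to 1.0, and the difference turned to -0.204 points for AcCoc minus Vehic in 3DFusi (3 pairs) and 0.165 for 3DFusi minus 3DMono (2 pairs). Tests across genes within muscle-rule cells (edgeR, DESeq2, unfiltered, with the block) were not run, since 2 tags reached the chosen minimum of 20 cells; tags with fewer cells were not tried. Few cells limit every share: 35 of 46 tags held no muscle-rule cell.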
